A study of Homo sapiens with 77 samples.

Results

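The 92 sgRNAs described here target 23 genes for ATP-dependent chromatin remodelers of the CHD, INO80 and ISWI families and their close partners. They were chosen by gene symbol from a pooled CRISPR knockout library directed at chromatin regulators, which holds 2306 sgRNAs in all, 50 of them controls and the others against 564 genes. All genes whose symbol begins with CHD or INO80 were taken, together with SMARCA1, SMARCA5, ACTR5, BPTF, BAZ1A, BAZ1B, BAZ2A, BAZ2B, SRCAP, EP400, ATRX and HELLS, and each had 4 sgRNAs. ACTR8, RUVBL1 and RUVBL2 were also sought by symbol and were not analysed here. The sgRNA sequences and cut positions were not analysed here either, so single sgRNAs are named by their number in the count tables and each targeted gene is placed by its annotation on hg38.

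Chromatin remodelers use the energy of ATP to slide, space, evict or exchange nucleosomes, and so set which DNA is open to transcription, replication and repair. The enzymes CHD1 to CHD9 carry paired chromodomains. INO80 and the SWR1-type enzymes SRCAP and EP400 have a split ATPase domain and handle the histone variant H2A.Z. The ISWI enzymes space nucleosomes evenly with the help of large partner proteins that direct them. ATRX and HELLS are more distant relatives of the same ATPase superfamily that act mainly in silent chromatin.

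The library was carried for 14 days in cells of KARPAS422, a line from a diffuse large B cell lymphoma with mutant EZH2, and in K562, a chronic myeloid leukaemia line with wildtype EZH2. Each line had 1 library on day 14 and 1 on day 0, both untreated, so no screen value below has a replicate or a p-value. RNA-seq of KARPAS422 gave the RNA of the same genes with the menin inhibitor MI-503 against DMSO and, in a separate experiment, with the EZH2 inhibitor EPZ-6438 plus the menin inhibitor VTP50469 against DMSO, with 2 libraries a group. All libraries come from a single cultured line each, and whether the numbered libraries came from separate cultures is not stated, so p-values measure the spread between these libraries only.

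The KARPAS422 screen libraries held 19025742 counts on day 14 and 20640972 on day 0, and those of K562 held 18275683 counts on day 14 and 25031212 on day 0. The sgRNAs against the 23 genes had 0 to 28865 counts on day 14 and 64 to 31900 on day 0 in KARPAS422. Each sgRNA was given as the log2 ratio of day 14 to day 0, scaled to equal library totals and centred on the median of the controls, so that 0 is the level of the control sgRNAs and −1 is a 2-fold loss relative to them. A gene's score is the middle value, or median, of its sgRNAs. Of 48 controls with at least 30 counts on day 0, 3 lay under −1 in KARPAS422 and 2 in K562, with SDs of 0.638 and 1.30. The 95% exact intervals of single sgRNAs against the 23 genes had a median width of 0.127 in KARPAS422 and 0.102 in K562. These intervals cover counting error only, since PCR reads without molecular identifiers are not independent molecules, and sgRNAs against a gene are not replicates of a condition.

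In KARPAS422, 12 of the 23 remodeler genes scored under −1, and in K562 none did. The share of all genes in the library past the same limit was 32.6% in KARPAS422 and 4.08% in K562. By single sgRNA, 44 of 92 lay under −1 in KARPAS422 and 10 of 91 with enough counts did in K562, against 36.9% and 11.9% over the sgRNAs of all genes. The K562 share of the remodeler sgRNAs was thus near that of the library. Centred on all sgRNAs in place of the controls, 9 of the 23 genes were under −1 in KARPAS422, where 19.5% of all genes were, and CHD1, BAZ1B and BAZ2A no longer passed. The median score of the 23 genes was −1.09 in KARPAS422, where that of all genes was −0.69. It was −0.12 in K562, where that of all genes was −0.23. The lowest scores in KARPAS422 belonged to an ATPase of each family, CHD4, CHD8, SMARCA5, SRCAP and INO80, whereas paralogs such as CHD3, CHD9 and SMARCA1 did not pass the limit.

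Among the CHD enzymes of subfamily I, CHD1 was the gene under −1. CHD1 binds histone H3 methylated at lysine 4 and spaces nucleosomes over transcribed genes. Its gene lies on chromosome 5 (98853985 to 98929007, minus strand). CHD1 sgRNAs had 3561, 9810, 5047 and 2193 counts on day 14, against 7783, 16091, 6813 and 2014 on day 0 in KARPAS422, which gave −1.78, −1.37, −1.08 and −0.53. The score was −1.22 (SD 0.525 over 4 sgRNAs) in KARPAS422 and −0.28 (SD 0.482) in K562. The CHD1 sgRNA nearest to the controls in KARPAS422, s_371, was the lowest of its gene in K562 at −0.84.

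CHD2, also of subfamily I, and CHD1L, taken here by its symbol and not a member of that subfamily, had no sgRNA under −1 in either line. CHD2, a paralog of CHD1 with a role in neuronal development, scored −0.44 in KARPAS422 and −0.12 in K562. CHD1L, which is recruited to DNA breaks by poly(ADP-ribose), scored −0.40 in KARPAS422 and −0.28 in K562. Their sgRNAs ran between −0.85 and 0.44 in KARPAS422, inside the range of −1.77 to 0.521 that held 95% of the controls.

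CHD4 had the lowest score of the 23 genes and ranked 13 of 564 from the lowest in KARPAS422. CHD4 is the main ATPase of the NuRD complex, which joins nucleosome remodeling to histone deacetylation, and lies on chromosome 12 (6570082 to 6614524, minus strand). CHD4 sgRNAs s_387, s_385, s_388 and s_386 had 381, 115, 659 and 1302 counts on day 14, against 10037, 2230, 5516 and 4701 on day 0 in KARPAS422. All 4 were thus far rarer on day 14, at −5.37 (95% counting interval −5.52 to −5.22), −4.92, −3.71 and −2.50, for a score of −4.32 (SD 1.29).

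The same CHD4 sgRNAs did not move together in K562. The sgRNAs s_387, s_385, s_388 and s_386 had 7764, 455, 6626 and 1254 counts on day 14, against 10260, 2474, 2985 and 4809 on day 0 in K562. The values were −0.13, −2.17, 1.42 and −1.67, so that 2 of the 4 were over 2-fold rarer than controls and 1 was over 2-fold more frequent. All 4 lay inside the range of −3.075 to 1.713 that held 95% of the controls in K562. The CHD4 score in K562 was −0.90 (SD 1.62), rank 34 of 564 and the lowest of the 23 genes there too. The day 0 libraries also differed at s_388: the log2 ratio of its day 0 share in KARPAS422 and in K562, taken as K562 over KARPAS422, was −1.16, outside the range of −0.69 to 0.485 that held 95% of 2270 sgRNAs.

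The paralogs CHD3 and CHD5 can take the place of CHD4 in NuRD. CHD3 scored −0.51 (SD 0.287) in KARPAS422 and −0.42 (SD 0.325) in K562. CHD5, best known from neurons and testis, scored −0.70 (SD 0.188) in KARPAS422 and −0.020 (SD 1.38) in K562. Neither gene had an sgRNA under −1 in KARPAS422. One CHD5 sgRNA, s_391, was at −2.67 in K562 with 1627 counts on day 14, against 12456 on day 0, while the other 3 lay between −0.13 and 0.26. That sgRNA also started at a higher share in K562, with a log2 ratio of 1.501 between the day 0 libraries, K562 over KARPAS422.

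Of the other NuRD subunits in the library, such as histone deacetylases and histone-binding, methyl-CpG-binding and MTA proteins, 6 of 11 scored under −1 in KARPAS422, with a median of −1.11. Over all genes 32.6% did. The lowest were RBBP4, a histone chaperone shared with other complexes, at −3.49, MBD2, which binds methylated DNA, at −2.38 and the scaffold protein MTA2 at −1.65. In K562, 1 of the 11 was under −1, RBBP4 at −1.28, where 4.08% of all genes were, and their median was −0.025.

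In subfamily III, CHD8 stood apart from its 3 paralogs. CHD8 is a transcriptional regulator known to bind beta-catenin, and mutations in it are linked to autism. It lies on chromosome 14 (21385194 to 21456126, minus strand). CHD8 sgRNAs s_402, s_404 and s_403 had 137, 237 and 435 counts on day 14, against 1079, 1469 and 2202 on day 0 in KARPAS422, or −3.62, −3.28 and −2.99. The remaining sgRNA, s_401, had 0 counts on day 14 and 64 on day 0, which with a floor of 3 counts places it under −4.69. The CHD8 score was −3.45, rank 40 of 564, and it does not depend on where s_401 lies under that bound.

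CHD8 sgRNAs were scarce throughout, so their values carry wider counting error than most. In K562, s_401 had 0 counts on both days and gave no value. The sgRNAs s_402, s_404 and s_403 had 777, 223 and 3130 counts on day 14, against 1159, 1531 and 2783 on day 0 in K562. The values of −0.31, −2.51 and 0.44 spread over 2.94 log2 units, with a score of −0.31.

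CHD6, CHD7 and CHD9 scored −0.91, −0.50 and 0.23 in KARPAS422 and −0.013, 0.43 and 0.32 in K562. CHD7 is the gene mutated in CHARGE syndrome and acts at enhancers in development. Its K562 score was the highest of the 23 genes, from sgRNAs with 6072, 9920, 21863 and 6116 counts on day 14, against 10432, 10385, 16767 and 3914 on day 0. Those 4 sgRNAs ran from −0.51 to 0.91, so the score was not shared by all of them. One of the CHD6 sgRNAs was under −1 in KARPAS422, at −1.07.

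CHD9 had the highest KARPAS422 score of the 23 genes and ranked 563 of 564 from the lowest. CHD9 sgRNAs s_407, s_405, s_406 and s_408 had 17494, 2750, 5080 and 408 counts on day 14, against 14331, 1676, 2455 and 71 on day 0 in KARPAS422, or −0.36, 0.063, 0.40 and 1.85. The sgRNA with the fewest counts thus gave the highest value, with a counting interval of 1.51 to 2.26. In K562 the same s_408 went the other way, with 0 counts on day 14 against 170 on day 0, which places it under −5.21. The other 3 CHD9 sgRNAs in K562 had 17325, 2926 and 3552 counts on day 14, against 18713, 2508 and 2345 on day 0, or 0.16, 0.49 and 0.87.

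Both genes of the INO80 complex in the set scored under −1 in KARPAS422. INO80 is the ATPase that gives the complex its name, and ACTR5 is an actin-related protein that belongs to the module of the complex that grips the nucleosome. INO80 lies on chromosome 15 (40978880 to 41116280, minus strand) and ACTR5 on chromosome 20 (38748460 to 38772520, plus strand). INO80 sgRNAs s_818, s_820, s_817 and s_819 had 757, 887, 704 and 15969 counts on day 14, against 14606, 6638, 2080 and 8984 on day 0 in KARPAS422. Of these, 3 were at −4.92, −3.55 and −2.21, while s_819 was at 0.18 and so as frequent as the controls. This span of 5.10 log2 units was the widest of the 23 genes in KARPAS422, around a score of −2.88 (SD 2.17).

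ACTR5 sgRNAs s_11, s_12, s_9 and s_10 had 2718, 1153, 18079 and 6552 counts on day 14, against 16143, 5766, 31900 and 6499 on day 0 in KARPAS422. They gave −3.22, −2.97, −1.47 and −0.64, for a score of −2.22 (SD 1.23). In K562 neither gene had an sgRNA under −1, though all 8 sgRNAs were below 0. The K562 scores were −0.45 (SD 0.287) for INO80 and −0.68 (SD 0.333) for ACTR5, and the sgRNA order of ACTR5 from lowest to highest was the same in both lines.

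SRCAP and EP400 were also among the lowest in KARPAS422, and close to controls in K562. SRCAP is the ATPase that places H2A.Z in nucleosomes, and lies on chromosome 16 (30698209 to 30741409, plus strand). SRCAP sgRNAs s_1935, s_1936, s_1937 and s_1938 had 256, 3302, 1766 and 7819 counts on day 14, against 4678, 18748, 8989 and 16093 on day 0 in KARPAS422. The values were −4.84, −3.16, −3.00 and −1.69, with a score of −3.08 (SD 1.29). In K562 the same sgRNAs were at 0.17, −0.66, 0.30 and 0.29, with a score of 0.23 (SD 0.460).

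EP400 is the ATPase of the TIP60 complex, which joins histone acetylation to H2A.Z exchange, and lies on chromosome 12 (131949942 to 132080460, plus strand). EP400 sgRNAs s_540, s_539, s_538 and s_537 had 181, 2179, 689 and 948 counts on day 14, against 1580, 10013, 2482 and 761 on day 0 in KARPAS422, or −3.77, −2.85, −2.50 and −0.33. In K562 they were at −0.030, 0.11, −1.54 and 1.00. The scores were −2.68 (SD 1.46) in KARPAS422 and 0.040 (SD 1.05) in K562. The sgRNA s_537 was the highest of its gene in both lines, and its day 0 share differed between them, with a log2 ratio of −0.98, K562 over KARPAS422.

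Of the genes for other subunits of the INO80, SRCAP and EP400 complexes, 9 were measured, and 6 of them scored under −1 in KARPAS422 with a median of −1.39. Over all genes the share was 32.6%. The lowest were KAT5, the acetyltransferase that works beside EP400, at −2.94, the shared actin-like subunit ACTL6A at −2.11 and the bromodomain protein BRD8 at −1.64. In K562 none of the 9 was under −1, and their median was −0.45.

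The 2 ISWI ATPases differed widely from each other in KARPAS422. SMARCA5 is the widely used ISWI enzyme of dividing cells, whereas SMARCA1 is best known from brain. SMARCA5 lies on chromosome 4 (143513702 to 143557486, plus strand). SMARCA5 sgRNAs s_1863, s_1864, s_1865 and s_1866 had 188, 879, 1964 and 227 counts on day 14, against 4615, 9662, 7577 and 718 on day 0 in KARPAS422. All 4 were under −1, at −5.26, −4.11, −2.60 and −2.31, and the score of −3.35 (SD 1.38) ranked 44 of 564.

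SMARCA1 had no sgRNA under −1 in either line. It scored −0.34 (SD 0.361) in KARPAS422, with sgRNAs between −0.87 and −0.0020, and 0.39 (SD 0.489) in K562. The K562 score was among the 3 highest of the set, from sgRNAs with 598, 4920, 2846 and 3638 counts on day 14, against 839, 5406, 2192 and 2415 on day 0. SMARCA5 in K562 scored −0.69 (SD 0.556), with s_1864 at −1.19 and s_1865 at 0.13 as its extremes.

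Among the proteins that pair with the ISWI ATPases, BPTF had the lowest score. BPTF is the large subunit of the NURF complex, reads methylated lysine 4 of histone H3, and lies on chromosome 17 (67825503 to 67984378, plus strand). BPTF sgRNAs s_199, s_200, s_197 and s_198 had 740, 1801, 5215 and 675 counts on day 14, against 4722, 7746, 17301 and 1190 on day 0 in KARPAS422. They gave −3.32, −2.76, −2.38 and −1.47, for a score of −2.57 (SD 0.779). In K562 the score was −0.72 (SD 0.870), and s_198, the least changed in KARPAS422, was the lowest there at −2.40.

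BAZ1B, the partner of SMARCA5 in the WICH complex, lies on chromosome 7 (73440406 to 73522293, minus strand). BAZ1B sgRNAs had 1410, 3069, 5552 and 11854 counts on day 14, against 3592, 5830, 8290 and 16800 on day 0 in KARPAS422. The values of −1.999, −1.58, −1.23 and −1.15 were close together, with a score of −1.40 (SD 0.386) in KARPAS422 and −0.45 (SD 0.263) in K562.

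BAZ2A, which forms the NoRC complex that silences ribosomal DNA, lies on chromosome 12 (56595596 to 56636816, minus strand). BAZ2A sgRNAs had 8696, 4185, 1836 and 8143 counts on day 14, against 14834, 6071, 2334 and 9148 on day 0 in KARPAS422, or −1.42, −1.19, −0.997 and −0.82. Its score of −1.09 (SD 0.259) in KARPAS422 lay just inside the limit, and the K562 score was 0.26 (SD 0.298). BAZ1A, the partner of SMARCA5 in the ACF complex, lay just outside it at −0.92 (SD 0.473) in KARPAS422, and scored 0.12 (SD 0.299) in K562.

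BAZ2B, a paralog of BAZ2A, was among the 3 highest in KARPAS422 at −0.32 (SD 0.317). BAZ2B sgRNAs s_182, s_181, s_184 and s_183 had 13054, 7921, 10365 and 190 counts on day 14, against 11686, 6895, 7535 and 105 on day 0 in KARPAS422, or −0.49, −0.45, −0.19 and 0.20. In K562 they had 11197, 7096, 7679 and 0 counts on day 14, against 11193, 8279, 8473 and 111 on day 0. The first 3 were at 0.27, 0.046 and 0.13, and s_183 was under −4.60 with the floor of 3 counts, so that the sgRNA with the fewest counts had the highest value in KARPAS422 and the lowest in K562. The K562 score of BAZ2B was 0.086.

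Of further partners of ISWI and ATRX, 3 were measured. DAXX, the H3.3 chaperone that works with ATRX, scored −1.91 in KARPAS422, RSF1, a partner of SMARCA5, scored −1.03 and CECR2, a partner of the ISWI ATPases, scored −0.86. In K562 none of the 3 was under −1, with a median of −0.52.

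ATRX and HELLS, the more distant relatives, fell on either side of the limit in KARPAS422. ATRX places histone H3.3 at telomeres and repeats and lies on chromosome X (77504880 to 77786233, minus strand). ATRX sgRNAs s_153, s_155, s_154 and s_156 had 353, 2115, 1950 and 9741 counts on day 14, against 1551, 9096, 3534 and 8771 on day 0 in KARPAS422, or −2.78, −2.76, −1.51 and −0.50. Its score was −2.13 (SD 1.10) in KARPAS422 and 0.42 (SD 1.14) in K562. In K562 the sgRNAs s_153, s_155, s_154 and s_156 had 455, 14376, 5157 and 7757 counts on day 14, against 1883, 12168, 3995 and 7419 on day 0. One of them, s_153, was at −1.78 while the other 3 lay between 0.33 and 0.64.

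HELLS helps to keep DNA methylation on repeats. HELLS sgRNAs had 729, 8569, 14412 and 9011 counts on day 14, against 849, 5847, 8871 and 3915 on day 0 in KARPAS422, or −0.87, −0.10, 0.049 and 0.55. Its score of −0.025 (SD 0.589) in KARPAS422 was higher than that of −0.24 (SD 0.240) in K562, and with the controls at 0 HELLS was the 1 gene of the 23 for which this was so.

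Several genes under −1 in KARPAS422 rested on 3 of their 4 sgRNAs. The sgRNA nearest to or above the control level was s_819 for INO80, s_537 for EP400, s_10 for ACTR5, s_156 for ATRX and s_371 for CHD1, and these lay between −0.64 and 0.18 in KARPAS422. All 4 sgRNAs were under −1 for 6 genes, CHD4, CHD8, SRCAP, SMARCA5, BPTF and BAZ1B. For BAZ2A 2 of the 4 were. The sgRNAs spanned more than 3 log2 units for 4 genes in KARPAS422, CHD8, INO80, SRCAP and EP400. The median span was 1.25 over the 23 genes and 0.985 over all genes in KARPAS422, and 1.08 and 1.04 in K562. Without the lowest sgRNA of every gene, 11 of the 23 genes remained under −1 in KARPAS422, BAZ2A being the one lost. Of all genes 28.7% were under −1 by that rule.

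In K562 the 10 sgRNAs under −1, singled out after their values were seen, came from 9 genes. CHD4 had 2 of them, and CHD5, CHD8, CHD9, EP400, SMARCA5, BPTF, BAZ2B and ATRX had 1 each. No gene had more than 2, so no median over sgRNAs passed the limit. With a mean over sgRNAs in place of the median, 3 of the 23 genes, BPTF, CHD9 and BAZ2B, were under −1, where 11.2% of all genes were. For CHD9 and BAZ2B this rested on an sgRNA at 0 counts on day 14. Among all gene-directed sgRNAs in K562, 39.7% of those with under 1000 counts on day 0 were under −1, against 9.90% of those with 1000 or more. For the remodeler sgRNAs these were 2 of 6 and 8 of 85. The part that low counts had in these K562 values was not tested.

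Set against each other, 22 of the 23 genes scored lower in KARPAS422 than in K562, which also held for 87.6% of all genes. Centred on all sgRNAs, 17 of the 23 did, where 55.7% of all genes did, and BAZ2B, CHD1L, CHD2, CHD3 and CHD9 joined HELLS as higher in KARPAS422. The difference was under −1 for 11 genes, where 27.3% of all genes passed that limit. The lowest differences were −3.41 for CHD4, −3.30 for SRCAP, −3.14 for CHD8, −2.715 for EP400, −2.66 for SMARCA5, −2.55 for ATRX and −2.43 for INO80. The median difference was −0.95 over the 23 genes and −0.58 over all genes. The lines also differed in genes that most dividing cells need, such as the kinase gene AURKA. Of 14 such genes all were under −1 in KARPAS422, with a median of −4.15, whereas 2 of 14 were in K562, with a median of −0.54. Over all genes the shares under −1 were 32.6% and 4.08%. With the controls at 0, scores had opposite signs in the lines for 8 of the 23 genes, SRCAP, EP400, ATRX, CHD7, SMARCA1, BAZ1A, BAZ2A and BAZ2B, which were above 0 in K562, and this held for 25.7% of all genes. With all sgRNAs at 0 it held for 10 of the 23 and for 39.2% of all genes: CHD7, SMARCA1 and BAZ2B were then above 0 in both lines, and CHD1L, CHD3, CHD5, CHD6 and HELLS had opposite signs. With 1 library per line and day, a difference in need for a remodeler and a difference in how strongly the screen selected in each line cannot be told apart.

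As a further remodeler family in the same library, the BAF and PBAF genes encode the SWI/SNF-type complexes. Of these, 6 of 16 (37.5%) were under −1 in KARPAS422, near the 32.6% of all genes, with a median of −0.93. By single sgRNA the families were alike in KARPAS422. For BAF and PBAF 30 of 64 sgRNAs (46.9%) were under −1, and for the 23 genes 44 of 92 (47.8%) were. The lowest were PBRM1 at −2.34, BRD7 at −2.24 and SMARCD1 at −2.22. Of the 23 CHD, INO80 and ISWI genes, 12 were under −1 with a median of −1.09, and 7 of them, from CHD4 to BPTF, scored lower than PBRM1. In K562, 1 of the 16 was under −1, where 4.08% of all genes were, and their median was −0.54.

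The RNA of the 23 genes in KARPAS422 ranged widely. In the DMSO libraries of the MI-503 experiment, CHD3 was highest at 54.9 RPKM, computed here from deposited counts, library size and exon length, followed by BAZ1B at 52.5, BPTF at 45.2, BAZ1A at 43.9, SMARCA5 at 42.7 and CHD4 at 37.4. SMARCA1 at 0.021, CHD5 at 0.052 and BAZ2B at 0.089 RPKM were lowest. The paralog pairs thus differed in level as well as in score: SMARCA5 had 358 and 337 CPM, which are counts scaled to library size, in the 2 DMSO libraries, and SMARCA1 had 0.13 and 0.055 CPM. For CHD3 and CHD4 the higher RNA level went with the score nearer to controls. Across the 23 genes Spearman's rho between RPKM in DMSO and KARPAS422 score was −0.37 in this experiment and −0.34 in the drug combination experiment, given as a description over genes that share libraries and are not independent.

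The B cell genes CD79A, CD79B, MS4A1, PAX5 and CD22 were at 305 to 1780 CPM in all KARPAS422 libraries compared. The myeloid and erythroid genes CD14, LYZ and HBB, and KRT14 and EPCAM of epithelia, were at most 1.41 CPM. KRT5, also of epithelia, reached 3.31 CPM, and the T cell genes CD3D and CD3E reached 65.0 and 2.99 CPM. Total counts per library ran between 25106810 and 54883332 with MI-503 or its DMSO control, and between 8956156 and 21837235 in the combination experiment. In bulk RNA, fewer cells that express a gene and less RNA per cell cannot be told apart.

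With MI-503, 16 of the 22 remodeler genes tested changed, 6 higher and 10 lower (edgeR quasi-likelihood test, Benjamini-Hochberg adjusted p under 0.1). This was a comparison in which 51.8% of all genes passed, 25.5% higher and 26.3% lower, and the changes were small. The median log2 fold change was −0.10 over the 22 genes and 0.0068 over all genes tested, and the largest of the 16 was 0.56 in size. SMARCA1 was too low to be tested.

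BAZ1B fell the most clearly, to 275 and 274 CPM with MI-503, against 369 and 373 CPM with DMSO (log2 fold change −0.43, SE 0.028, edgeR adjusted p = 7.89e-07). BPTF rose, to 800 and 795 CPM with MI-503, against 682 and 684 CPM with DMSO (0.22, SE 0.025, edgeR adjusted p = 3.73e-05). Subunits of the same family thus moved in opposite directions.

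SMARCA5 fell to 290 and 283 CPM with MI-503, against 358 and 337 CPM with DMSO (−0.28, SE 0.035, edgeR adjusted p = 7.64e-05). CHD4 fell to 411 and 408 CPM with MI-503, against 474 and 476 CPM with DMSO (−0.21, SE 0.027, edgeR adjusted p = 7.89e-05). HELLS, which is most used in proliferating cells, fell to 32.3 and 30.4 CPM with MI-503, against 41.1 and 40.7 CPM with DMSO (−0.38, SE 0.052, edgeR adjusted p = 1.63e-04). BAZ1A fell to 296 and 285 CPM with MI-503, against 346 and 330 CPM with DMSO (−0.22, SE 0.034, edgeR adjusted p = 3.63e-04). For each of these 6 genes, named for their smallest adjusted p, the groups did not overlap. Nor did they for CHD1, CHD5, CHD7 and EP400, which did not pass, and the share over all genes was not counted.

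Of the 12 genes under −1 in the KARPAS422 screen, 8 changed with MI-503, where 51.8% of all genes did. ACTR5 rose by 0.32 and BAZ2A by 0.13 on the log2 scale besides BPTF, and CHD8 fell by 0.14 and SRCAP by 0.13 besides BAZ1B, SMARCA5 and CHD4. Without the first MI-503 library SRCAP was at −0.085 (edgeR adjusted p = 0.178), and without the second BAZ2A was at 0.11 (edgeR adjusted p = 0.153). CHD1 (−0.050), EP400 (−0.049), ATRX (−0.0032) and INO80 (0.58) did not pass the test. With the replicate number as a block INO80 was at 0.69 and passed (edgeR adjusted p = 5.43e-08). INO80 had 593 and 247 counts with MI-503, against 629 and 129 with DMSO, that is 11.0 and 9.72 CPM against 11.6 and 2.38 CPM, so its groups overlapped and its value rests on the DMSO libraries. Without the second its log2 fold change was −0.15 (edgeR adjusted p = 0.292), and without the first it was 2.135 (edgeR adjusted p = 2.54e-12). CHD1 was at −0.090 without the second DMSO library (edgeR adjusted p = 0.0808).

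With EPZ-6438 plus VTP50469, 11 of 22 genes tested changed, 5 higher and 6 lower by the same test. This fit had no replicate block, though same-numbered libraries deviated together in this experiment. Of all genes 48.7% passed, 23.5% higher and 25.2% lower. The median log2 fold change was −0.21 over the 22 genes and 0.10 over all genes tested. With the replicate number as a block, CHD5 also rose (1.77, edgeR adjusted p = 0.0587) and CHD1L also fell (−0.35, edgeR adjusted p = 0.064), giving 6 higher and 7 lower. CHD5 rests on 1 library, with 12 and 125 counts with both drugs, against 6 and 24 with DMSO. In the fit with no block it was at 2.07 (edgeR adjusted p = 0.1695), and without the second library with both drugs at −0.49 (edgeR adjusted p = 0.716). The values depended on single libraries. Without the first library with both drugs the median log2 fold change was −0.507 over the remodeler genes and 0.145 over all genes. Without the second it was −0.0687 and −0.0351. It was −0.175 and 0.406 without the first DMSO library, and −0.256 and 0.29 without the second. With the compared groups fitted alone, 3 remodeler genes were higher and 2 lower, where 1661 and 1924 of 12953 genes were.

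CHD6 rose to 171 and 135 CPM with both drugs, against 91.7 and 89.8 CPM with DMSO (0.76, SE 0.129, edgeR adjusted p = 0.00486). CHD4 fell to 255 and 206 CPM with both drugs, against 362 and 372 CPM with DMSO (−0.67, SE 0.119, edgeR adjusted p = 0.00572). BAZ2B, a gene with little RNA, rose to 8.97 and 11.0 CPM with both drugs, against 3.97 and 3.55 CPM with DMSO (1.41, SE 0.271, edgeR adjusted p = 0.00754). The groups did not overlap for any of the 3, nor for CHD1L, INO80, SRCAP, EP400 and BAZ2A, which did not pass in this fit. The share of all genes without overlap was not counted, so this does not set these genes apart. Without the first library with both drugs, CHD6 was at 0.40 and CHD4 at −1.01, both still past the threshold.

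BAZ1B fell to 342 and 247 CPM with both drugs, against 519 and 484 CPM with DMSO (−0.77, SE 0.154, edgeR adjusted p = 0.00884). CHD2 rose to 45.0 and 36.4 CPM with both drugs, against 30.1 and 23.7 CPM with DMSO (0.60, SE 0.152, edgeR adjusted p = 0.0213). CHD1 fell to 92.9 and 54.7 CPM with both drugs, against 154 and 118 CPM with DMSO (−0.88, SE 0.251, edgeR adjusted p = 0.0324). The groups did not overlap for these genes either, again without a count over all genes. Without the first library with both drugs, BAZ1B was at −1.20, CHD1 at −1.49 and CHD2 at 0.26, and CHD2 no longer passed (edgeR adjusted p = 0.169). CHD1 was at −0.58 without the second library with both drugs, and CHD2 was at 0.36 without the second DMSO library (edgeR adjusted p = 0.106). Fitted without the single-drug libraries, CHD1 (edgeR adjusted p = 0.126) and CHD2 (edgeR adjusted p = 0.1003) did not pass.

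Of the 12 genes under −1 in the KARPAS422 screen, 5 fell with both drugs and none rose. Over all genes 25.2% were lower and 23.5% higher. Besides CHD1, CHD4 and BAZ1B these were SMARCA5, by 0.59 on the log2 scale, and ACTR5, by 0.32. ACTR5 passed in the fit to all libraries and without the first library with both drugs, but not when any of the other 3 compared libraries was left out, with edgeR adjusted p between 0.125 and 0.159. SMARCA5 was at −1.145 without the first library with both drugs and at −0.32 without the second, and did not pass without the first DMSO library (edgeR adjusted p = 0.183). Neither passed when the compared groups were fitted alone, with edgeR adjusted p of 0.165 for ACTR5 and 0.178 for SMARCA5. The values of the other 7 were −0.20 for CHD8, −0.18 for INO80, −0.22 for SRCAP, −0.21 for EP400, −0.27 for BPTF, 0.21 for BAZ2A and 0.14 for ATRX. Without the first library with both drugs, CHD8, INO80, EP400, BPTF and ATRX were at −0.59, −0.49, −0.48, −0.76 and −0.51. Without the second, BAZ2A was at 0.32 and ATRX at 0.465.

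The 2 drug comparisons used separate DMSO libraries. Of all genes 51.8% passed with MI-503 and 48.7% with both drugs. The share of all genes called alike or oppositely in the 2 comparisons was not counted. CHD4, SMARCA5, BAZ1B and HELLS fell in both, and CHD3 and CHD6 rose in both. CHD2 and BAZ2B fell with MI-503 and rose with both drugs, and ACTR5 did the opposite. Several of these calls rest on single libraries. With MI-503, BAZ2B (−0.56) passed only without the first MI-503 library among the sets with 1 left out, and CHD2 (−0.15) did not pass without the second MI-503 library (edgeR adjusted p = 0.223) or the first DMSO library (edgeR adjusted p = 0.174). With both drugs, CHD3 (0.27) was at −0.023 without the first treated library, and did not pass without either DMSO library (edgeR adjusted p = 0.287 and 0.168). HELLS (−0.70) was at −0.42 without the second treated library (edgeR adjusted p = 0.145) and at −0.46 without the first DMSO library (edgeR adjusted p = 0.223). It was at −1.26 without the first treated library and at −1.003 without the second DMSO library, and passed in both. The levels of 2 genes differed widely between the tables of the 2 experiments. SRCAP had 206 and 204 CPM in the DMSO libraries of the MI-503 experiment and 12.3 and 12.8 CPM in those of the combination, and INO80 had 11.6 and 2.38 CPM in the first set and 87.3 and 87.9 CPM in the second. SRCAP overlaps 2 other protein-coding genes in the annotation and INO80 overlaps 0. Whether the tables counted overlapping genes differently was not tested.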

How the data were processed

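Screen values are raw sgRNA counts as deposited, which the authors obtained with cutadapt (trimming) and MAGeCK (counting). RNA values are raw gene counts as deposited, made by the authors with HISAT2 (2.1.0) on hg38 and featureCounts (1.6.1). CASAVA (1.7) and Picard (2.23.1) appear in the submitters' processing notes without a stated use. The sources used here give neither strand nor annotation, so reads of overlapping genes cannot be assigned with certainty. Labels and methods differ on the RNA kit.

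Samples were grouped by the labels. Counts of the screen were scaled to equal totals with a pseudocount of 1, centred on the median control, and kept with at least 30 counts on day 0. Intervals are 95% Clopper-Pearson intervals (scipy 1.17.1, pandas 2.3.3, Python 3.11.15). RNA counts were tested with edgeR 4.0.16 (R 4.3.3), with TMM and filterByExpr, for MI-503 in 4 libraries and for both drugs in all 8 KARPAS422 libraries of that experiment. DESeq2 1.42.0, RLE size factors, no filter, a replicate block and libraries left out were alternatives. Both procedures were tested on simulated data. In the combination experiment, same-numbered libraries deviated together in all 6 pairs of groups (correlations 0.65 to 0.864). The main fit had no block for this, so its p-values ignore such pairing, and the replicate block was an alternative. Positions and exon lengths come from GENCODE 44.

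Every gene was reported in both screens. Single sgRNAs were given for genes under −1, for the 3 highest in each line and for spans over 3. In RNA, the genes with the 6 smallest adjusted p and those under −1 in KARPAS422 were named, and other genes were the 3 lowest of their list. CHD1L, CHD3, CHD5, CHD7, CHD9 and SMARCA1 in RNA were named after their values were seen. The genes and lists were chosen with earlier results of these data known. Other lines, single drugs and chromatin profiling were not analysed here. A few marker genes are not reported here.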

Additional observations from a re-analysis of the deposited data

Results flagged for a closer look

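For 8 of the 23 remodeler genes the screen scores had opposite signs in the 2 lines, below the controls in KARPAS422 and above them in K562. The KARPAS422 minus K562 difference was −3.30 for SRCAP, −2.715 for EP400, −2.55 for ATRX, −1.355 for BAZ2A, −1.04 for BAZ1A, −0.93 for CHD7, −0.72 for SMARCA1 and −0.41 for BAZ2B. With 1 library per line and day the difference was not tested. Opposite signs were found for 25.7% of all genes in the library. The signs depend on where 0 is set: centred on all sgRNAs, CHD7, SMARCA1 and BAZ2B were above 0 in both lines, and CHD1L, CHD3, CHD5, CHD6 and HELLS had opposite signs, with 39.2% of all genes. SRCAP, BAZ1A and BAZ2A had opposite signs under every setting tried, and EP400 and ATRX under all but the mean over sgRNAs.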

How the results depend on the processing

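With the screen centred on all sgRNAs or on library totals alone, the median score of the 23 genes in KARPAS422 was −0.41 and −0.32, and 9 genes were under −1 (19.5% and 18.6% of all genes), without CHD1, BAZ1B and BAZ2A. A pseudocount of 5 or another minimum on day 0 left 12, with 32.6% to 33.2% of all genes. A mean over sgRNAs gave 13, with 35.8% of all genes. In K562 the mean gave 3 genes, where 11.2% of all genes were under −1, and all other settings none. Opposite signs in the lines held for 6 to 13 of the 23 genes, and for 22.2% to 39.2% of all genes. A lower score in KARPAS422 held for 17 to 22, and for 49.6% to 88.8% of all genes, with 17 of the 23 under both other centrings. For both drugs, the replicate block gave 4840 genes higher and 3814 lower. With the compared groups alone 1661 genes were higher and 1924 lower, with 3 and 2 of the remodeler genes. With 1 library left out, the lone library being assumed to vary like the others, 1869 to 5338 genes were higher and 2590 to 5797 lower, with 2 to 7 and 3 to 14 of the remodeler genes. The cause was not tested. For MI-503 the same-numbered libraries did not deviate together (correlation −0.020), and with the replicate block 4082 genes were higher and 4236 lower, with 7 and 11 of the remodeler genes, INO80 (0.69) and CHD7 (−0.074) being added. With MI-503 libraries left out, 4 to 6 remodeler genes were higher and 8 to 10 lower. In RNA, signs turned for 6 genes, of which CHD3 alone had passed in the comparison where it turned. Over libraries left out, MI-503 gave −0.15 to 2.135 for INO80 (negative without DMSO replicate 2) and −0.037 to 0.033 for ATRX (positive without MI-503 replicate 2, at 0.014, or DMSO replicate 1). Both drugs gave −0.023 to 0.35 for CHD3, −0.12 to 0.32 for BAZ2A and −0.51 to 0.465 for ATRX, all 3 negative without replicate 1 of both drugs, and ATRX at −0.14 without DMSO replicate 2. They gave −0.49 to 2.92 for CHD5 and −0.76 to 0.078 for CHD9, with the sign turned without replicate 2 of both drugs. Screen values have no replicate, and sgRNAs with few counts on day 0 limit CHD8, CHD9 and BAZ2B.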
